A study of Mus musculus with 12 samples.

Results

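Interferon gamma and 8 genes that it controls or that carry its effects (Ifng, Irf1, Ciita, Gbp2, Cxcl9, Cxcl10, Cxcl11, Cxcr3 and Ido1) were followed in the cecum of mice after cauterization. They were picked by gene name, with earlier results of these data known, and are 9 of the 37074 genes on the array, read by 15 of its 56605 probes. The mice were wild-type C57BL/6, labelled male, in 4 groups of 3 arrays. Mice of 1 group had a sham operation, with the tissue taken at once, and the cecum of the others was burned for a moment with bipolar forceps and taken 3, 12 or 72 h later. All groups thus had the abdomen opened, under pentobarbital anaesthesia by the study's methods. No group had a transgene or a drug under test, and the age of the mice is not given in the sources used here. No sham tissue was taken at 3, 12 or 72 h. In a difference from sham, the burn thus cannot be told apart from the operation, the anaesthetic or elapsed time. The study used this injury as a model of the fibrous bands that form between organs after surgery. Of this pathway, the question the 4 groups address is when its genes change between the burn and the third day.

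Interferon gamma is a cytokine made mainly by T, NK and NKT cells. It binds a receptor of the chains Ifngr1 and Ifngr2, which act through the kinases Jak1 and Jak2. The signal reaches a short palindrome called GAS in target promoters and switches on Irf1, a transcription factor, which with its relatives binds a motif called ISRE. Among the known targets are guanylate binding proteins such as Gbp2, the chemokines Cxcl9, Cxcl10 and Cxcl11, which draw cells that bear the receptor Cxcr3, the MHC class II transactivator Ciita, and Ido1, an enzyme that breaks down tryptophan.

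Promoters of 4 of these genes are shown because 3 of them drive genes that rose after the burn. The Irf1 promoter shown, 1 of 2, carries a GAS, and its gene was not called. The sequences are the 250 bases before the transcription start, from RefSeq on GRCm38.p6. Matches to GAS (TTCNNNGAA), ISRE (GAAA, any 2 bases, GAAA) and the NF-kB consensus on either strand are in capitals.
Cxcl10, chr5:92348890-92349139, minus strand: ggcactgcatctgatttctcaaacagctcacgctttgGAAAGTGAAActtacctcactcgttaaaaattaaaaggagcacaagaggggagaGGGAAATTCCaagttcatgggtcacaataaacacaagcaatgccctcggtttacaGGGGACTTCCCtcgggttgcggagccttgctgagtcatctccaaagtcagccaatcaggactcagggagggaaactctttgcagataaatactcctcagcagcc
Gbp2, chr3:142620413-142620662, plus strand: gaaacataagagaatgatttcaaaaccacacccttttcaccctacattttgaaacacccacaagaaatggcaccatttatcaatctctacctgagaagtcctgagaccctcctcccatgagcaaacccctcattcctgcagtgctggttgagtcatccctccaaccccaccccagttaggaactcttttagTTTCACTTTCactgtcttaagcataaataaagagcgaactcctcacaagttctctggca
Cxcl9, chr5:92328080-92328329, minus strand: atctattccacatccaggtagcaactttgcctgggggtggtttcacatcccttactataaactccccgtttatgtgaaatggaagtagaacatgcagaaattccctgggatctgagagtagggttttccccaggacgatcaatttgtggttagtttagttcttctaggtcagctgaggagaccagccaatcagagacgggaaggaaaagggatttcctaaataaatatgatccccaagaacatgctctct
Irf1, chr11:53769764-53770013, plus strand: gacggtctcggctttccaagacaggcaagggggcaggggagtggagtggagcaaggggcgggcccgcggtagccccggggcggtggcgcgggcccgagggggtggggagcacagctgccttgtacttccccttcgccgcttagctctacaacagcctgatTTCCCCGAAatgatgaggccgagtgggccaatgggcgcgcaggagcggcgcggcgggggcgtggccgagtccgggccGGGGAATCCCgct
The ISRE of Cxcl10 lay 213 to 204 bases before the start and that of Gbp2 59 to 50 bases before it. The GAS of Irf1 lay 90 to 82 bases before the start. Cxcl10 also held 3 matches to the NF-kB consensus, of which the pair nearest the start overlapped, and Irf1 held 1. Cxcl9 held none of the 3 motifs in this window, nor did the other Irf1 promoter (chr11:53770223-53770472), which is not shown. Among all 32851 promoters of the table, 7.02% held a GAS, 2.98% an ISRE and 7.25% an NF-kB match. The Ifng promoter held a GAS (TTCAGAGAA, 249 to 241 bases before the start), and that of Cxcr3 no match. Promoters were matched for 6 of the 9 genes, not for Ciita, Cxcl11 or Ido1. A match is a string of letters and no measured site.

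Levels are given on the log2 scale, as the background-corrected brightness of a probe minus the 75th percentile of its array, so that 1 unit is a doubling and 0 is the 75th percentile. Levels of different probes cannot be set against each other. A difference is called when its fold change is above 2 and its adjusted p in the fit over all probes is below 0.05. Between 60.2% and 65.2% of probes were well above background, the scanner's own test, on each array. The sham and 3 h arrays and 12 h replicates 1 and 2 lay on the first slide, and 12 h replicate 3 and the 72 h arrays on the second, so slide and the 72 h group are told apart by 1 array. The cecum label was borne out, with 12 of 12 epithelial and 9 of 9 smooth muscle markers above background on every array. The labelled sex was not: Xist was above background on 12 of 12 arrays, while no probe of Ddx3y or Eif2s3y was so on any, Uty was so on 1 array and Kdm5d by 1 of its 6 probes. All 12 arrays gave the same picture, so no comparison splits by it. The median difference from sham over all genes was 0.08, -0.01 and -0.14 at the 3 times in order.

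At 3 h 2 of the 9 genes had risen against sham, Gbp2 and Cxcl10, and 1 had fallen, Ciita. Over all genes, 3.26% were called higher and 4.11% lower in that comparison. At 12 h 2 genes were higher, Gbp2 and Cxcl9, and none was lower, where 4.10% of all genes were called higher and 4.96% lower. At 72 h Gbp2 alone of the 9 was called higher and none lower, where the shares over all genes were 4.55% and 4.30%. Gbp2 was thus the only one of the 9 called at all 3 times by its brightest probe. The median difference over the 9 genes was 0.31, 0.25 and -0.06 in the same order. The 3 comparisons share the sham arrays.

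**Figure D1:**
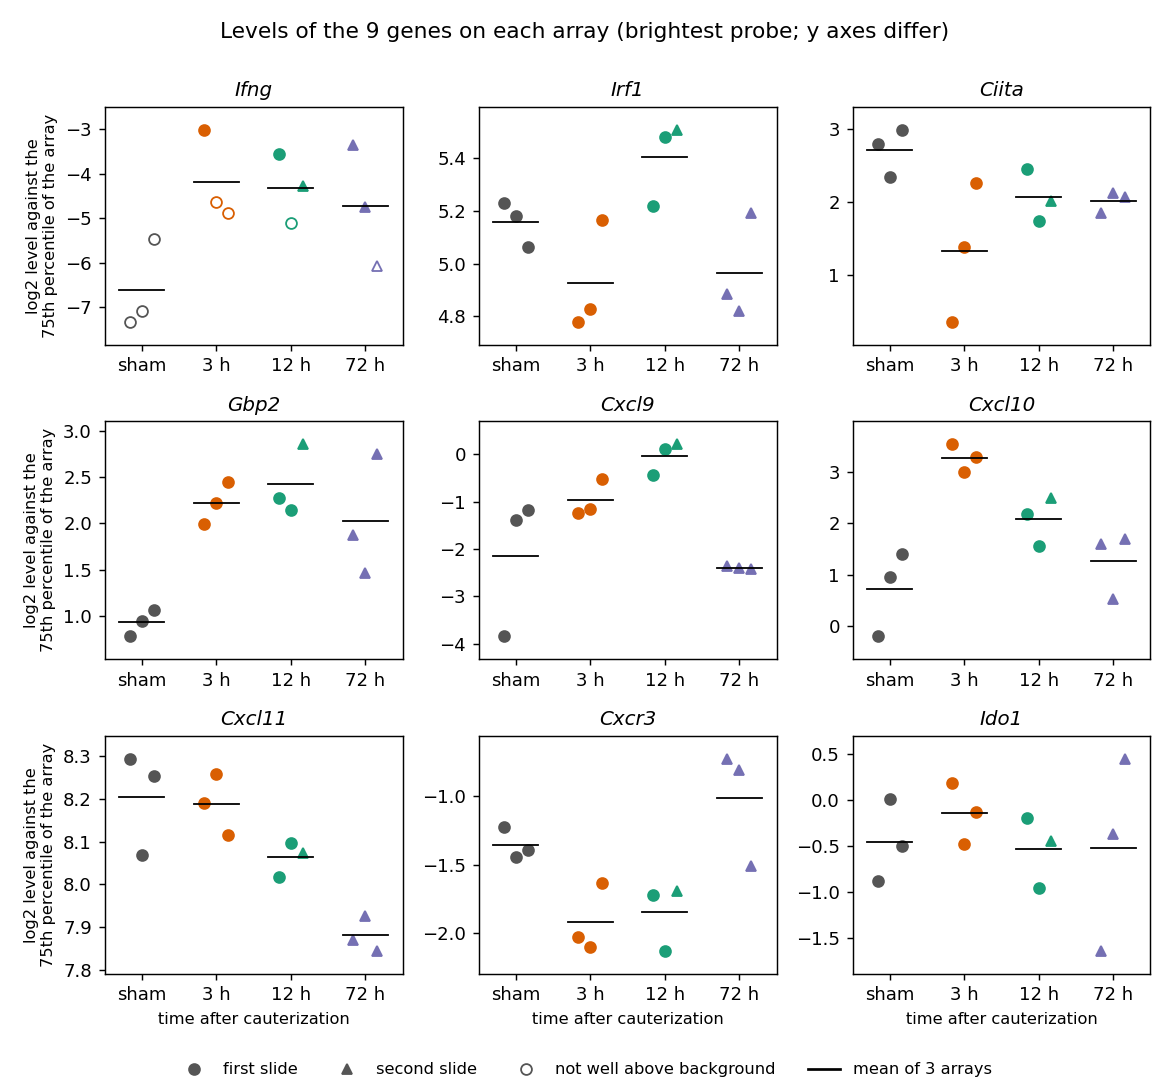
Level of each gene by its brightest probe on each of the 12 arrays (log2 against the 75th percentile of the array, y axes differ), with circles for the first slide, triangles for the second, open symbols where the probe was not well above background and a bar at the mean of 3 arrays. Gbp2 lies above its sham arrays at every time, Cxcl10 is highest at 3 h, Cxcl9 at 12 h, and Ifng has open symbols on all 3 sham arrays.

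**Figure D2:**
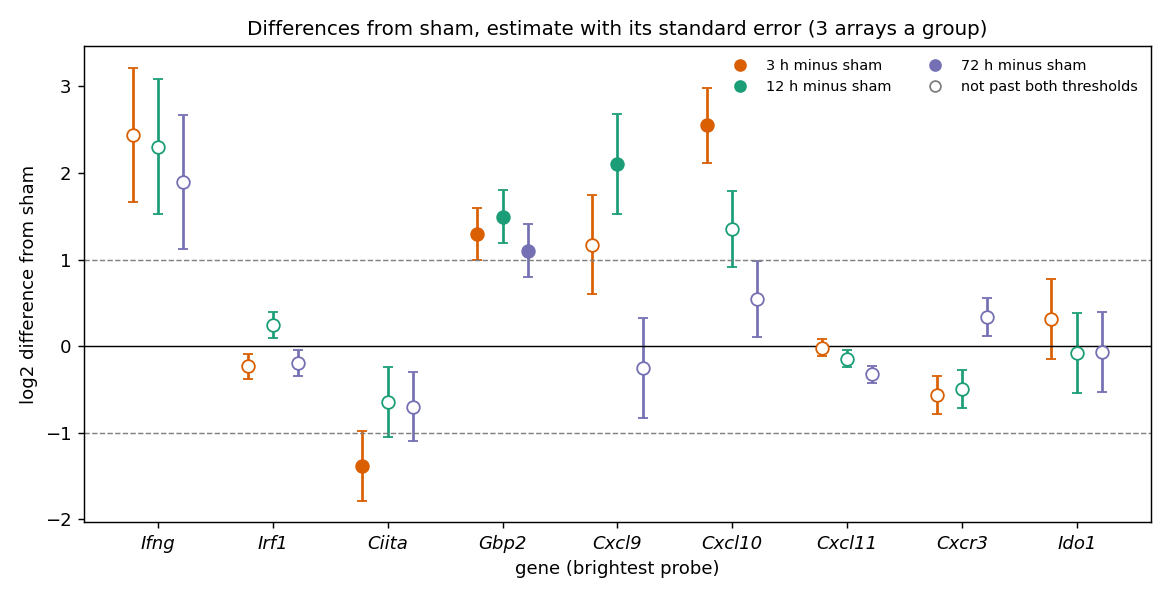
Log2 difference from sham of each gene's brightest probe at 3, 12 and 72 h, with its standard error from the fit over 12 arrays; filled symbols passed both thresholds and dashed lines mark a fold of 2. Filled symbols are Gbp2 at all 3 times, Cxcl10 and Ciita at 3 h and Cxcl9 at 12 h.

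Ifng, the cytokine itself, was near the floor of the array. Its probe (chr10:117882841-117882900, mm9, plus strand) was well above background on no sham array, on 1 of 3 arrays at 3 h and on 2 of 3 at 12 h and at 72 h. Its measured levels were -7.33, -7.08 and -5.47 in sham, -3.02, -4.64 and -4.90 at 3 h. At 12 h the arrays read -3.56, -5.12 and -4.28, and those of 72 h read -3.35, -4.75 and -6.08. No array at 3 or 12 h overlapped the sham arrays, and 1 array at 72 h did. The sham values are only bounds. The mean was set against the dimmest signal that the scanner called well above background in sham. It was 1.78-fold higher at 3 h, 1.62-fold at 12 h and 1.23-fold at 72 h. Later arrays that were not well above background entered at their measured values, so these folds are no strict bounds. The measured differences were 2.44, 2.31 and 1.90 with a standard error of 0.78. None was called (limma adjusted p = 0.054, 0.0617 and 0.119). The 3 times did not differ from each other beyond their spread, with adjusted p from 0.613 to 0.927.

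Markers of the cells that make interferon gamma were called at shares of 5% higher and 5% lower at 3 h and 10% higher later, beside the shares over all genes above. Of 20 markers of T and NK cells, 1 was called higher and 1 lower at 3 h, and 2 were called higher and none lower at 12 and at 72 h. The markers that were higher at 12 and 72 h were Gzma and Gzmb, granzymes of cytotoxic cells, by 1.81 and 2.34 at 12 h. Gzmb was also the one that was higher at 3 h, by 2.38, while Cd5, a surface protein of T cells, fell by 1.48. The summed linear level of the 20 markers ran from 26.6 to 31.6 in sham, 19.3 to 32.0 at 3 h, 24.9 to 39.0 at 12 h and 26.9 to 32.7 at 72 h. In whole tissue, fewer cells of a type and less RNA per cell cannot be told apart.

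Irf1, a transcription factor that interferon gamma switches on early, was called at no time. Its brightest probe (chr11:53590746-53590805, mm9, plus strand) read 5.23, 5.18 and 5.06 in sham, 4.78, 4.83 and 5.17 at 3 h. The 12 h arrays read 5.22, 5.48 and 5.51, and those of 72 h read 4.89, 4.82 and 5.19. The differences from sham were -0.23, 0.25 and -0.19 with a standard error of 0.15, and their adjusted p ran from 0.285 to 0.41. The arrays of each time overlapped those of sham. The 12 h arrays lay above all 3 h and all 72 h arrays, by 0.48 and 0.44, with adjusted p of 0.0767 and 0.0686. A further probe that spans 146 bases of the genome (chr11:53587446-53587591) was lower at 72 h than at 12 h by the test but not by the fold (-0.60, adjusted p = 0.0364).

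Ciita, the master switch of MHC class II genes, was lower at 3 h. Its brightest probe (chr16:10526458-10526517, mm9, plus strand) read 2.80, 2.34 and 2.99 in sham and 0.35, 1.38 and 2.26 at 3 h. At 12 h it read 2.45, 1.74 and 2.02, and at 72 h 1.85, 2.13 and 2.06. The 3 h arrays lay below all sham arrays but were spread widely (SD 0.95), with replicate 1 the lowest. Ciita fell by 1.38 at 3 h (standard error 0.40, adjusted p = 0.0379), and differed from sham by -0.64 at 12 h and -0.70 at 72 h (adjusted p = 0.314 and 0.264). Without 3 h replicate 1 the 3 h difference was -0.89, with adjusted p = 0.0801. The call was lost in 15 of 27 alternatives, 8 of which left out 1 array.

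The 3 probes of Ciita that gave a level were all highest in sham and lowest at 3 h. Probe 2 (chr16:10525904-10525963) differed by -1.25 at 3 h and probe 3 (chr16:10492271-10492330) by -1.51, with adjusted p of 0.0479 and 0.00228, and both were called. Probe 3 also stayed below all sham arrays at 12 and 72 h, by -0.91 and -0.80 (adjusted p = 0.0235 and 0.0417), which is short of a fold of 2. Probe 4 (chr16:10512788-10512847) was not well above background on any array and gives no level. The probes lie at different places of a gene with several starts, and no mm9 annotation was used here to place them in exons.

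Markers of B cells, which express Ciita without stimulation, were summed on the same arrays. The summed linear level of 10 B cell markers was 33.1, 19.0 and 32.8 on the sham arrays and 1.80, 11.5 and 29.2 on the 3 h arrays. It was 35.8, 15.5 and 24.3 at 12 h and 6.27, 14.8 and 17.9 at 72 h. The 3 h array with the lowest Ciita thus had the lowest B cell sum, and the 3 h array with the highest Ciita the highest. This order was not particular to B cells. In order of replicate at 3 h, T and NK cell markers summed to 19.3, 22.7 and 32.0. Macrophage markers summed to 156, 228 and 313 and mesothelial markers to 0.46, 2.09 and 2.81. Neutrophil, dendritic cell, epithelial and smooth muscle sums had other orders. All 10 B cell markers were above background on every sham and 12 h array, and 8 of 10 on 3 h replicate 1. None of the 10 was called at any time against sham, and their medians were -1.46, -0.17 and -1.24. Their part in the Ciita result was not tested.

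**Figure D3:**
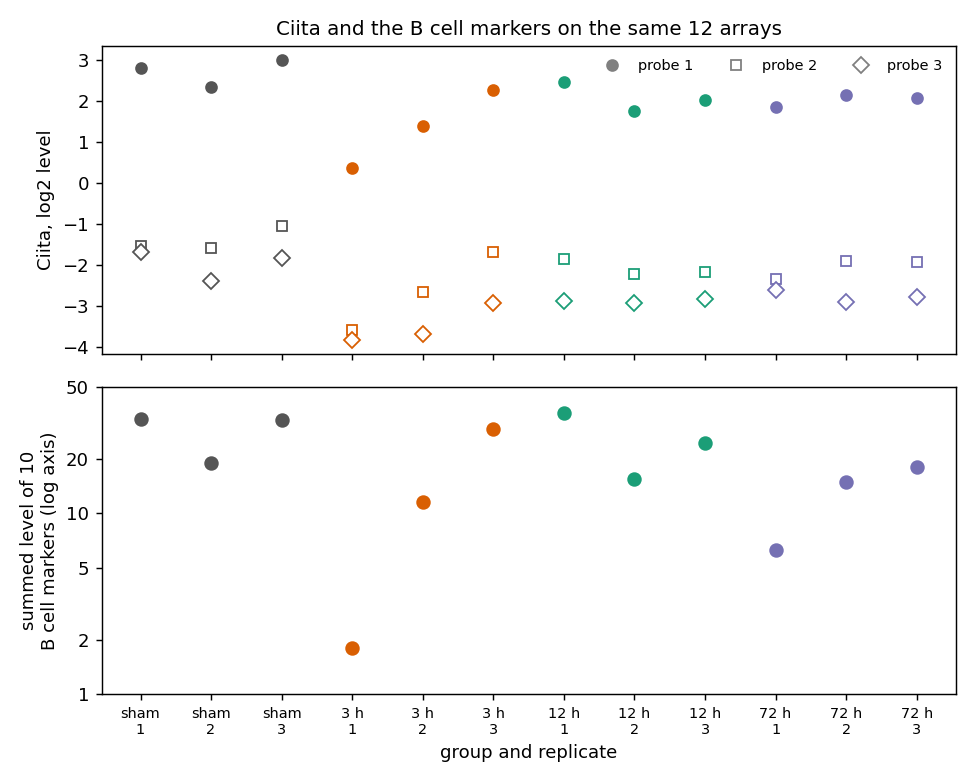
Upper panel: log2 level of Ciita by 3 of its probes on the 12 arrays, in order of group and replicate. Lower panel: summed linear level of 10 B cell markers on the same arrays, on a log axis; 3 h replicate 1 is lowest in both panels, with Ciita at 0.35 and a B cell sum of 1.80.

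Ciita's targets were not called. Of 10 genes of MHC class II presentation none passed at 3, 12 or 72 h against sham by limma or by Dunnett's test, while 2, 0 and 1 had an unadjusted p below 0.05. By the methods' t-test is meant a t-test paired by replicate number, although those numbers do not pair the arrays. The study's methods name a paired t-test for comparing 2 groups, but no test for its arrays. The study reported differing genes at each time. The paired test as run here called no gene of the whole array against sham, so its result for any list was fixed. The median differences of the 10 genes were -0.44, -0.46 and 0.04. H2-DMa, which helps load peptides, was lower at 3 h by the test but not by the fold (-0.77, adjusted p = 0.0259).  Its levels were 0.67, 0.48 and 0.66 in sham and -0.64, -0.16 and 0.29 at 3 h, which do not overlap. The protease Ctss was higher at 72 h by 0.80 (adjusted p = 0.0204), also short of a fold of 2.

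Gbp2, a GTPase that attacks the membranes around microbes, rose early and stayed up. Its probe (chr3:142300719-142300778, mm9, plus strand) read 0.78, 0.95 and 1.06 in sham, 1.99, 2.22 and 2.45 at 3 h. At 12 h the arrays read 2.27, 2.15 and 2.86, and those of 72 h read 1.87, 1.46 and 2.76. All 9 arrays after cauterization lay above all 3 sham arrays. The gains in order of time were 1.29, 1.50 and 1.10, each with a standard error of 0.30 (adjusted p = 0.0153, 0.00637 and 0.0293). The 3 times did not differ from each other beyond their spread, with differences of -0.39 to 0.20 and adjusted p from 0.409 to 0.701. The 3 h call was lost without sham replicate 1 (adjusted p = 0.0586), without 3 h replicate 3 (0.0542) and by Dunnett's test (0.0782). For the 72 h gain, slide and time are told apart by 1 array alone, 12 h replicate 3. With slide as a block the 72 h gain was 0.46 (adjusted p = 0.65), and it also missed the threshold without any 1 of the sham arrays, at 1.03, 1.11 and 1.17 (adjusted p = 0.0882, 0.0752 and 0.0533), or without 72 h replicate 1 or 3 (0.0549 and 0.0656).

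Some relatives of Gbp2 rose as well. Of 16 other guanylate binding proteins and immunity related GTPases, which share its role, 2 were called higher at 3 h, 2 at 12 h and 1 at 72 h, and none lower. These were 12.5%, 12.5% and 6.25% of the list, beside 3.26%, 4.10% and 4.55% of all genes. With slide as a block 2, 0 and 0 were called higher, and Dunnett's test called 1, 0 and 0. Gbp5, which also helps inflammasomes assemble, read -1.20, -0.95 and -0.92 in sham and 0.96, 1.91 and 2.002 at 3 h, a rise of 2.64 (adjusted p = 0.00762). It then read 0.41, 0.01 and 1.14 at 12 h and -0.07, -0.80 and 1.55 at 72 h, which was not called. Gbp6 rose by 1.64 at 3 h and 1.37 at 12 h, Iigp1 by 1.35 at 12 h and Gm4951 by 1.12 at 72 h. The medians over the 16 genes were 0.17, 0.53 and 0.38. Gene copies of this family are alike in sequence. The probe of Gbp2 shares a run of 16 bases with that of 1 other array entry, which is no gene of the family. Probes were compared with probes alone and not with transcripts. Whether this probe also reads transcripts of a relative was thus not tested.

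Cxcl10, a chemokine for activated T and NK cells, rose most at 3 h among the members called then. Its brightest probe (chr5:92775781-92775840, mm9, minus strand) read -0.20, 0.95 and 1.41 in sham and 3.53, 3.00 and 3.29 at 3 h. The levels were 2.18, 1.55 and 2.48 at 12 h and 1.59, 0.52 and 1.69 at 72 h. The 3 h and 12 h arrays lay above all sham arrays, and the 72 h arrays overlapped them. Cxcl10 rose by 2.55 at 3 h (standard error 0.44, adjusted p = 0.00329), a 5.85-fold change. At 12 h the difference was 1.35, just past the adjusted p limit (0.0527), and at 72 h it was 0.55 (0.433).

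Cxcl10 fell by 2.005 from 3 to 72 h (standard error 0.44, adjusted p = 0.00693), the only one of the 9 called in that comparison, where 11.70% of all genes were called in either direction. A second, dim probe (chr5:92776616-92776675), which was well above background on no sham array, was called at all 3 times. Its levels were at least 2.08-fold higher than in sham at 3 h and 1.77-fold at 12 h. At 72 h the value was 1.63-fold, but replicate 2 was not well above background and entered at its measured level. That array read -5.59, beside -6.18 to -5.75 in sham, so the 72 h value is no strict bound. For that probe no difference between the 3 times passed the test, with adjusted p from 0.588 to 0.877, and from 3 to 72 h it differed by -0.35. It was designed to another transcript record of the gene.

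Cxcl9, a chemokine that is bound by the same receptor and is known for its tight dependence on interferon gamma, was highest at 12 h. Its probe (chr5:92752191-92752250, mm9, minus strand) read -3.84, -1.39 and -1.18 in sham and -1.23, -1.16 and -0.51 at 3 h. At 12 h it read -0.42, 0.11 and 0.21, above every array of the other groups. At 72 h the 3 arrays were close together, at -2.37, -2.40 and -2.42. Cxcl9 rose by 2.11 at 12 h (standard error 0.57, adjusted p = 0.0266), and the differences at 3 and 72 h were 1.17 and -0.25 (adjusted p = 0.176 and 0.784).

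From 12 to 72 h Cxcl9 fell by 2.36 (standard error 0.57, adjusted p = 0.0191), where 7.52% of all genes were called in either direction, and it was the only one of the 9. Between 3 and 12 h none of the 9 was called by limma, 2 had an unadjusted p below 0.05, and 3.46% of all genes were called. The methods' t-test called 1 of 37019 genes in that comparison, so its lack of a call among the 9 says little. Sham replicate 1 decides how the 72 h arrays stand against sham. Without it, Cxcl9 was 1.10 lower at 72 h than in sham (adjusted p = 0.0193), and the 12 h rise was 1.25. The 12 h rise also missed the threshold within the first slide alone (1.98, adjusted p = 0.127), and the fall to 72 h missed it within the second (-2.61, adjusted p = 0.0838), where 12 h has 1 array. The fall to 72 h also missed it without 12 h replicate 2 or 3 or 72 h replicate 1 or 2 (adjusted p from 0.0510 to 0.0615). Without 12 h replicate 2 or 3 the 12 h rise also missed it (adjusted p = 0.0752 and 0.0721).

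Cxcl11, the last of the 3 chemokines, was read by probes that share sequence with those of many other genes. In C57BL/6 mice the gene is known to carry a frameshift, so that no working protein is made. Probe 1 (chr5:92788567-92788626, mm9, minus strand) read 8.29, 8.07 and 8.25 in sham, 8.19, 8.26 and 8.12 at 3 h. The 12 h arrays read 8.02, 8.10 and 8.07, and those of 72 h read 7.87, 7.93 and 7.84. The differences from sham were -0.02, -0.14 and -0.32, of which the last passed the test without the fold (adjusted p = 0.0402). Probe 2 (chr5:92788640-92788699) read 2.47 to 3.04 over the 12 arrays and differed from sham by -0.17 at each time (adjusted p from 0.463 to 0.513).

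The stretches below are 30 bases of each probe, shown because they bear on what the Cxcl11 values measure, with bases that lie in a run of 16 or more shared with a probe of another gene in capitals.
Cxcl11 probe 1, bases 15 to 44: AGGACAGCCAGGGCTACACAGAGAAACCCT
Cxcl11 probe 2, bases 16 to 45: cagcacttgaaAGGCAGAGGCAGGAGGATC
Probe 1 shared such a run with probes of 16 other genes and probe 2 with those of 2. The other 13 probes of the 9 genes shared one with at most 1 other gene, and 14.5% of the brightest probes of all genes shared one with any. In 6 of the 16 genes the shared run was 20 bases or longer, a limit set after the values were seen, and reached 31 bases in Elk1, Glrx2 and Med16. None of these genes is on the lists of interferon genes used here. Their probes differed from sham at 72 h by -0.38 in Elk1, -0.33 in Glrx2 and -0.36 in Med16, beside -0.32 in Cxcl11. Over the 6 genes the range was -0.38 to -0.10, and over the 10 with shorter runs -0.70 to 0.996. The values did not divide by run length: Kctd14, with a run of 17 bases, stood at -0.34, and Astn1, with 21, at -0.10. How much of the signal comes from Cxcl11 transcripts was not tested, so its level values stand for the probe alone.

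**Figure D4:**
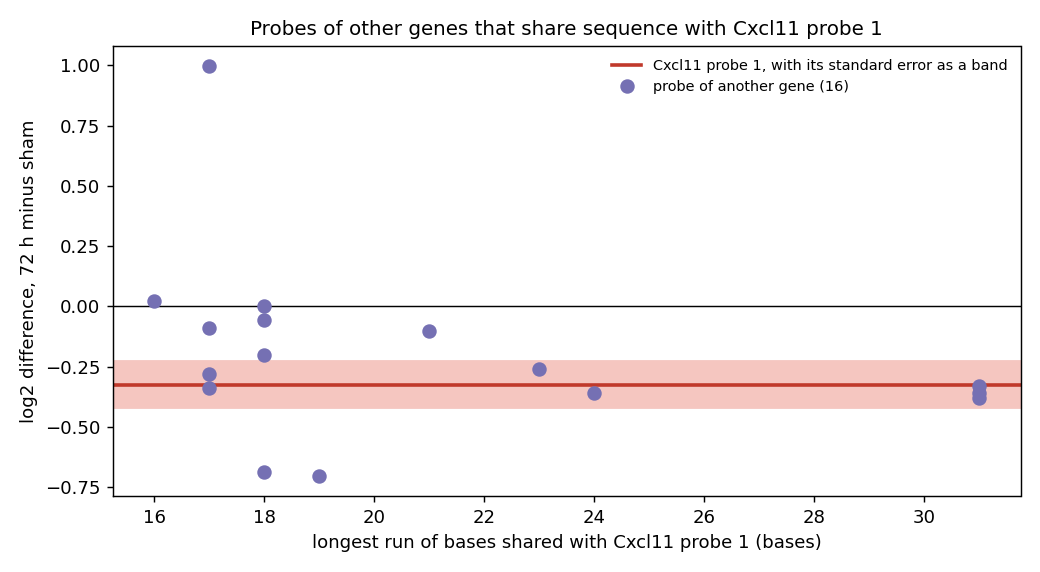
Log2 difference of 72 h minus sham for the probes of 16 other genes that share sequence with Cxcl11 probe 1, against the length of the longest shared run in bases; the line is Cxcl11 probe 1 at -0.32 with its standard error as a band. The 3 probes with a run of 31 bases lie within the band, while those with runs under 20 bases range from -0.70 to 0.996.

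Cxcr3, the receptor of these chemokines on activated T and NK cells, did not rise with them. Its probe (chrX:98926920-98926979, mm9, minus strand) read -1.22, -1.45 and -1.40 in sham, -2.03, -2.10 and -1.63 at 3 h. At 12 h the arrays read -1.72, -2.13 and -1.69, and those of 72 h read -0.73, -0.81 and -1.51. The 3 h and 12 h arrays lay below all sham arrays, by -0.57 and -0.49, and these differences did not pass the test (adjusted p = 0.104 and 0.153). At 72 h the difference from sham was 0.34 (adjusted p = 0.328). Cxcr3 was higher at 72 h than at 3 h by 0.91 and than at 12 h by 0.83 (standard error 0.22, adjusted p = 0.012 and 0.0273), with no overlap of arrays, but below a fold of 2. At the times when Cxcl10 and Cxcl9 were highest, Cxcr3 thus read lower than in sham, but by differences that did not pass the test.

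Ido1, the tryptophan enzyme, showed no change that the spread allows to be seen. Its probe (chr8:25694798-25694857, mm9, minus strand) read -0.88, 0.02 and -0.50 in sham, 0.18, -0.47 and -0.13 at 3 h. The 12 h arrays read -0.19, -0.96 and -0.44, and those of 72 h read -1.64, -0.36 and 0.45. The groups overlapped throughout, and the 72 h arrays had a standard deviation of 1.05. The differences from sham were 0.31, -0.08 and -0.06 with a standard error of 0.46. Its relative Ido2 rose by 1.23 at 3 h and 1.39 at 12 h (adjusted p = 0.00599 and 0.00251). Kynu, which acts further down the same pathway, fell by 1.16 at 3 h (adjusted p = 0.0356), the only one of 20 other targets called lower, and was below background on 1 of the 3 arrays then.

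The wider pathway was read by 87 genes in 6 lists. Those called higher numbered 14, 18 and 11 at the 3 times and those called lower 1, 2 and 1, to be read beside the shares over all genes given above. Their median differences were 0.18, 0.46 and 0.11. The lists overlap in role with other signals of injury, and neutrophil and macrophage markers moved at the same times. The summed level of 13 neutrophil markers was 83.6 to 94.9 in sham, 368 to 616 at 3 h, 848 to 896 at 12 h and 361 to 659 at 72 h. That of 14 macrophage markers was 154 to 177, 156 to 313, 287 to 341 and 443 to 482. Of the neutrophil markers 8, 12 and 8 were called higher at the 3 times and of the macrophage markers 2, 5 and 12, with 1 macrophage marker lower at 3 and at 12 h. Their part in these counts was not tested.

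Among 11 genes of the receptor and its signalling, 3 were called against sham, and 2 of them are brakes. Called higher were 18.2% of the list at 3 h and at 12 h, beside 3.26% and 4.10% of all genes. Socs1, which blocks the Jak kinases, read -0.68, -0.57 and -0.04 in sham and 1.29, 1.11 and 1.51 at 3 h. It rose by 1.73 at 3 h and 1.58 at 12 h (adjusted p = 0.000499 and 0.000557). Ptpn2, a phosphatase that acts on Jak and Stat proteins, rose by 1.27 at 3 h, and the kinase Jak2 by 1.09 at 12 h. The receptor chain Ifngr1 was higher by the test but not by the fold at 3 h (0.74, adjusted p = 0.000828) and at 12 h (0.67, adjusted p = 0.00103), and differed from sham by -0.08 at 72 h. Its arrays read 4.47, 4.51 and 4.41 in sham and 5.24, 5.14 and 5.21 at 3 h. Ifngr2 differed by 0.36, 0.29 and 0.04 and did not pass the test.

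Of 18 genes that drive or limit the making of interferon gamma, those called higher numbered 3, 5 and 3 at the 3 times and those called lower 0, 2 and 1. Higher were 16.7%, 27.8% and 16.7% of the list, beside 3.26%, 4.10% and 4.55% of all genes. Lower were 0%, 11.1% and 5.56%, beside 4.11%, 4.96% and 4.30% of all genes. With slide as a block 3, 5 and 1 were called higher and 0, 1 and 0 lower. Il18rap, a chain of the IL-18 receptor that neutrophils also express, was above background on no sham array and on all arrays after that. It was at least 3.25-fold higher at 3 h, 8.13-fold at 12 h and 3.95-fold at 72 h. Il12b, a subunit of IL-12 and IL-23, rose by 1.62 at 3 h, when 2 of its 3 arrays, at -1.82 and -2.34, stood above the rest and the other, at -4.05, was near its sham arrays (-4.42 to -4.29). Ebi3, a subunit of IL-27 and IL-35, rose by 3.13 at 12 h and 1.93 at 72 h. Tacr1, the receptor of the neuropeptide substance P, rose by 1.81 and 2.05 at these times, and Tac1, its precursor gene, by 1.20 at 3 h. At 12 h Stat4, which carries the IL-12 signal, rose by 1.39 and Il18bp, which traps IL-18, by 1.39. Eomes, a transcription factor of NK and cytotoxic T cells, fell by 1.05 at 12 h and 1.02 at 72 h, and Il15, which sustains these cells, fell by 1.05 at 12 h.

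Among the 6 pathway lists, that of 20 other targets held the largest changes, with 7 called higher at 3 h, 9 at 12 h and 7 at 72 h. These were 35%, 45% and 35% of the list, beside 3.26%, 4.10% and 4.55% of all genes. With slide as a block 7, 8 and 3 were called higher. Most members of the list also answer to signals other than interferon gamma. Irg1 (Acod1), which makes itaconate in macrophages, read -2.03, -2.59 and -1.75 in sham and 6.44, 5.24 and 5.71 at 12 h. It rose by 6.36, 7.92 and 6.37 at the 3 times.

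Nos2, the inducible nitric oxide synthase, rose by 2.39 at 3 h, 3.45 at 12 h and 3.86 at 72 h. Icam1, which holds leukocytes to the vessel wall, rose by 2.26, 2.17 and 1.31, and Gch1, which makes the cofactor of Nos2, by 1.39 at 3 h and 1.71 at 12 h. The Fc receptor Fcgr1 rose by 2.55 at 12 h and 3.20 at 72 h, and the oxidase subunit Cybb by 2.16 at 72 h. For Fcgr1 the sham arrays read -2.66, -2.26 and -1.99 and the 72 h arrays 0.87, 0.80 and 1.01.

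Genes of MHC class I and the immunoproteasome, which interferon gamma is known to raise in most cells, were not called. Of 12 genes none passed against sham at 3, 12 or 72 h by limma or by Dunnett's test, while 1, 6 and 1 had an unadjusted p below 0.05. The methods' t-test called no gene of the array against sham, so it adds nothing here. At 12 h 3 of them passed the test without the fold. These were H2-D1 (0.53, adjusted p = 0.02), Psmb10 (0.51, adjusted p = 0.0254) and B2m (0.46, adjusted p = 0.0371). The medians over the 12 genes were 0.04, 0.46 and -0.05.

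Type I interferons act on the same ISRE, so their 23 genes are set beside these. They were called 1 higher and 0 lower at 3 h and 0 and 0 at 12 h, where Dunnett's test called none either and 8 had an unadjusted p below 0.05. The methods' t-test, which called no gene of the array against sham, cannot add to this. At 72 h 1 was higher and 10 were lower, which is 4.35% and 43.5% of the list beside 4.55% and 4.30% of all genes. With slide as a block none was called at 72 h and their median was -0.84, where 1 array alone tells slide from time. The summed level of 12 epithelial markers was 2231 to 2418 in sham and 1265 to 1692 at 72 h, and its part in the fall was not tested. Their medians were 0.58, 0.44 and -1.20 at the 3 times, beside 0.18, 0.46 and 0.11 for the 87 genes above. Irf7, their amplifier, read 7.04, 6.74 and 6.76 in sham and 4.86, 4.74 and 5.29 at 72 h, a fall of 1.88. Ifit1 fell by 2.44 and Usp18 by 2.23 at 72 h. Of the 9 members Gbp2, Cxcl10, Cxcr3 and Ifng stood above sham then, at 1.10, 0.55, 0.34 and 1.90, and only Gbp2 was called. Irf1, Cxcl9, Cxcl11, Ciita and Ido1 stood below it, at -0.19, -0.25, -0.32, -0.70 and -0.06, and none was called. With slide as a block Gbp2 stood at 0.46, and the lowest Cxcl10 value over the alternatives was -0.07. The difference between these lists was not tested, and both are read against the same sham arrays.

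**Figure D5:**
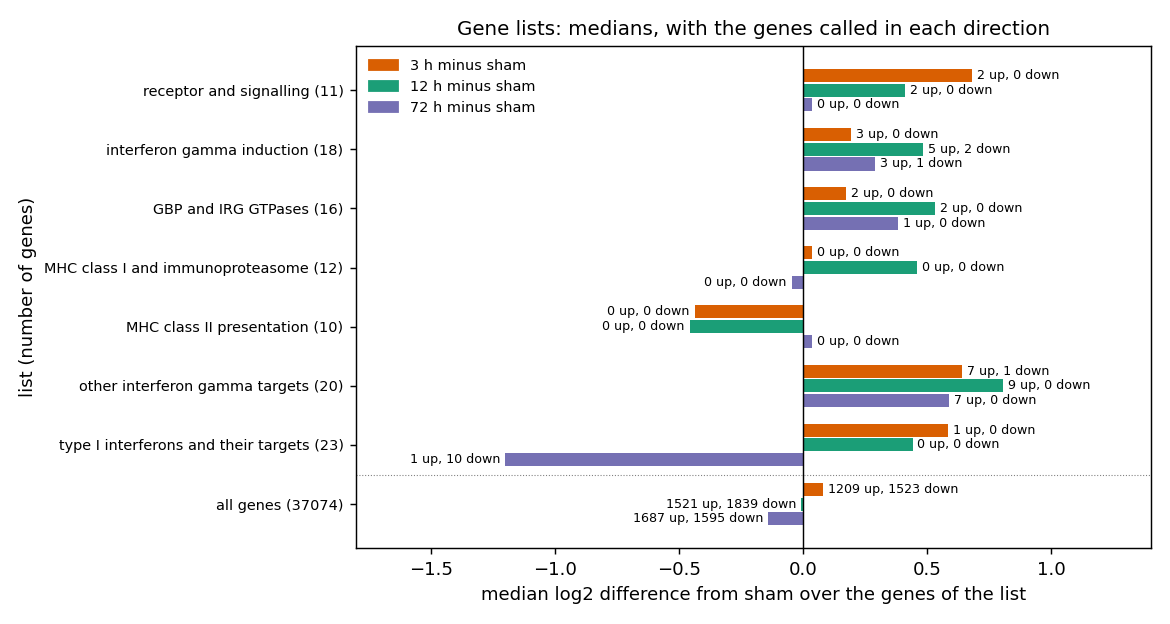
Median log2 difference from sham over the genes of each list at 3, 12 and 72 h, with the number of genes called higher (up) and lower (down) written at each bar and all 37074 genes at the bottom. The list of type I interferon genes stands at -1.20 at 72 h with 10 genes lower, while the 6 lists of interferon gamma genes drawn here lie between -0.05 and 0.59 at that time.

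The genes whose course over the 12 arrays was most like that of each member were found by the root mean square difference of centred log2 values among 23521 other genes. For Gbp2 it was Gbp2b, its neighbour in the same gene family, at 0.22, where Gbp2 itself varied by 0.67 about its mean. For Ciita the nearest named gene was Slc9a7 at 0.21 and for Cxcr3 it was Peg12 at 0.16. Cxcl9 and Cxcl10 had no close match, with Neto2 at 0.56 and BB123696 at 0.41. For Cxcl11 probe 1 the nearest genes lay at 0.03 and 0.04 (Ttc38, Gm20751 and Pirb), since it varied by only 0.14.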

How the data were processed

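RNA of whole cecum, labelled with Cy3, was read on 1-colour SurePrint G3 arrays of Agilent for mouse (v2, 8x60K). The authors deposited Feature Extraction output with the intensity of each spot, less its background, on a linear scale and not normalized between arrays. The log2 values deposited in the series table were scaled by the authors to the 75th percentile in GeneSpring. After centring of each probe they matched the values used here (Pearson's r = 0.999996), and they served as an alternative.

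Here outlier spots (53 to 152 per array) and control spots were left out and repeat spots averaged. The log2 of each intensity, less that of the 75th percentile on its array, entered limma 3.58.1 under R 4.3.3, with the means of 4 groups over 12 arrays as coefficients and moderated variances. The Benjamini-Hochberg method was applied over 56605 probes. To be called, a gene needed more than a 2-fold change together with an adjusted p under 0.05 by its probe of highest mean. Where no array of a group was well above background, the fold was taken against the lowest signal that was. Such a fold is a lower bound only where every array of the other group was well above background. No spot was saturated. The number of arrays, 3 per group, limits the precision.

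The members and all lists were chosen with earlier results of these data known. By rule, the text names every member, up to 5 called genes per list with the largest change, genes called against their list, the receptor chains, sex genes and the genes nearest in course. Some genes that the rule would name are not reported here. Granzymes, Cd5, Ido2, H2-DMa, Ctss, 3 MHC class I genes and the genes that share sequence with Cxcl11 were named after their values were seen. Of 89 listed pathway genes 87 were on the array by name (Acod1 as Irg1). Tables were made in Python 3.11.15. The fit was tested on simulated data. Probe coordinates are those of mm9 per the file headers. Replicate numbers did not pair the arrays. Alternatives were other normalizations, background correction, filters, blocks, tests, probe rules and leaving out each array, with the slides taken separately added after seeing the data.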

Additional observations from a re-analysis of the deposited data

Results flagged for a closer look

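The difference between time points was itself fitted for each of the 9 genes, and it passed both thresholds for 2 of them, which are given here with the settings that end each call. Cxcl9 stood higher at 12 h than at 72 h, with a difference of 72 h minus 12 h of -2.36 (limma adjusted p = 0.0191) and lower levels in 3 of 3 arrays at 72 h. The call was lost without 12 h replicate 2 (adjusted p = 0.0615), 12 h replicate 3 (0.0510), 72 h replicate 1 (0.0546) or 72 h replicate 2 (0.0552), and with slide as a block (-2.61, 0.132). Cxcl10 stood higher at 3 h than at 72 h, with a difference of 72 h minus 3 h of -2.00 (limma adjusted p = 0.00693) and lower levels in 3 of 3 arrays at 72 h. The call was lost with slide as a block (-2.62, adjusted p = 0.0905) and with the mean of all probes (-1.18, 0.0505), and its second probe differed by -0.35 (0.588). The 72 h arrays lie on the second slide, so slide moves with both differences and 1 array alone tells it from time. The methods' t-test ended both calls, but it called no gene of the whole array in either comparison.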

How the results depend on the processing

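No called difference of the 9 genes changed direction under any alternative. Of 1407 recomputed differences, 47 lost the call, 28 gained it, and 48 that were called in neither fit changed sign. The genes called among the 9 numbered 3 at 3 h, 2 at 12 h and 1 at 72 h against sham, 0 from 3 to 12 h, 1 from 12 to 72 h and 1 from 3 to 72 h, and the other pathway genes 15, 20 and 12 against sham. With slide as a block the 9 genes gave 1 at 12 h, 0 at 72 h, 0 from 12 to 72 h and 0 from 3 to 72 h, and the pathway 4 at 72 h. Within the first slide they gave 1 at 12 h, and within the second 0 from 12 to 72 h. The methods' t-test (paired by number) called 0 of the 9 in all of these comparisons and 0 pathway genes after adjustment. Over the whole array it called 1 gene from 3 to 12 h and none in the other comparisons. By its unadjusted p and the fold, 2, 1 and 0 of the 9 and 12, 17 and 9 pathway genes passed at 3, 12 and 72 h. Dunnett's test, which applies against sham alone, gave 1, 1 and 0 of the 9 and 9 and 11 pathway genes at 3 and 12 h. Normexp background correction gave 9 and 13 pathway genes at 3 and 12 h. Ebayes with trend and robust gave 4 of the 9 at 12 h. Fitting only the groups compared gave 0 at 72 h and 2 from 3 to 72 h, the percentile over probes above background 2 from 3 to 72 h, and the mean of all probes 0 there. With no fold limit the counts were 2 at 72 h, 2 from 12 to 72 h and 3 from 3 to 72 h, and 25 and 20 pathway genes at 3 and 72 h. Leaving out 1 array gave 1 to 4 of the 9 at 3 h, 1 to 4 at 12 h, 0 to 1 at 72 h, 0 to 2 from 12 to 72 h and 1 to 3 from 3 to 72 h, and 11 to 17, 13 to 22 and 8 to 14 pathway genes. Ciita at 3 h lost its call in 8 of 12 such fits (adjusted p from 0.00746 to 0.341 over all alternatives), and Cxcl10 at 3 h in none. Ifng at 3 h was called without sham replicate 3 (3.02, adjusted p = 0.0344), without 72 h replicate 1 or 3 (0.0355 and 0.0377) and by eBayes with trend and robust (0.0364). At 12 h it was called in these same settings (adjusted p = 0.0357, 0.0402, 0.0425 and 0.0434) and with only the groups compared (0.0469), and at 72 h without 72 h replicate 3 (0.0497).

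The replicate block, with numbers that do not pair the arrays (correlations of deviations from -0.40 to 0.26 over 18 pairs of the same number, 6 of them over 0.1), gave 2, 3 and 1 of the 9 against sham. In it Ciita at 3 h was not called (adjusted p = 0.0515) while Cxcl10 at 12 h was (0.0481). Scaling matters for the balance of calls over all genes: at 72 h 1687 were higher and 1595 lower, and 1851 and 1098 with quantile normalization, which moved the median of all genes from -0.14 to -0.02. At 3 h 1209 were higher and 1523 lower, and 1036 and 1967 with the percentile over probes above background. Ifng and the dim Cxcl10 probe are limited by signal over background, and Ifng was not tested under the filter on dim probes.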
